A study of Homo sapiens with 4 samples.

Results

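Nucleosomes were described over a 2.5-Mb stretch of chromosome 2 that holds MYCN. The cells were BE(2)C, an established line from a human neuroblastoma in which this gene is amplified. All nucleosomes whose dyad, the centre of the wrapped DNA, lay in this stretch (hg19) were taken: 10285 of 10527010 in control replicate 1, 10836 of 12120711 in control replicate 2, 10386 of 10677252 in N-myc kd replicate 1 and 10895 of 12178724 in N-myc kd replicate 2. Inside the stretch lay 2 blocks of 10-kb bins with a high summed read count, block 1 of 21 bins (chr2:16070001-16280000) and block 2 of 28 bins (chr2:16330001-16610000). They were separated by 5 bins without a nucleosome and bordered by 196 flanking bins. The blocks were chosen by their summed read counts in these same libraries, so their level against the flanks is a description and was not tested.

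MYCN encodes N-MYC, a basic helix-loop-helix transcription factor that drives growth in neuroblastoma. Amplification copies a piece of chromosome around the gene many times, and neighbours such as DDX1, an RNA helicase gene, and NBAS, a gene for a protein of Golgi-to-endoplasmic-reticulum transport, are carried along in some tumours and not in others. Micrococcal nuclease (MNase) digests the DNA between nucleosomes, so the sequenced fragments count how often nucleosomal DNA from each place was recovered. The count follows both the number of DNA copies and the share of copies with a nucleosome there, and these cannot be told apart here.

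The cells received a control siRNA or an siRNA against MYCN (N-myc kd), with 2 libraries in each group. The labels give 80 nM siRNA, while the methods state a lower final concentration, and the labels describe the genotype of both groups as wild type. Both groups are the same line with the amplified gene, and the siRNA acts on its transcript. Nucleosome reads hold no transcript level, so the knockdown itself could not be checked in these files. The paper calls the replicates biological, while the labels give them only a number. What differed between them is not stated, so part of their spread may be technical. Summed over a list, control replicate 1 had 147726171 reads, control replicate 2 had 242544884, N-myc kd replicate 1 had 147370973 and N-myc kd replicate 2 had 239257113. In both groups replicate 2 was thus the deeper list, by 1.64 and 1.62 times. Every nucleosome in the lists was 147 bp long, and none had fewer than 6 reads.

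The sequence at the right outer end of the blocks is shown because the read level changed there between neighbouring nucleosomes. The sequence just upstream of MYCN is shown because the dyad of the weakest nucleosome near the gene lay in it. Both are from the GRCh37 plus strand. The right end is chr2:16602628-16602903, where capitals mark the 216 bases between the last dyad on the high side and the first dyad on the low side over the 4 libraries. The MYCN sequence is chr2:16080472-16080671, which ends 1 base before the transcription start, and capitals mark the 136 bases covered by the nucleosome in both replicate 2 libraries.
Right end: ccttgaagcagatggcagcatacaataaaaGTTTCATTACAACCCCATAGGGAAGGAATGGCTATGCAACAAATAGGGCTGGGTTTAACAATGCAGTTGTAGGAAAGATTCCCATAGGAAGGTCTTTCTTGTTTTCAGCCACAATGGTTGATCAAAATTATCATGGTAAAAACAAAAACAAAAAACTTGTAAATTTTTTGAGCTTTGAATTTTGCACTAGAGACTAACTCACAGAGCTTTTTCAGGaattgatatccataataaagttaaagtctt
MYCN upstream: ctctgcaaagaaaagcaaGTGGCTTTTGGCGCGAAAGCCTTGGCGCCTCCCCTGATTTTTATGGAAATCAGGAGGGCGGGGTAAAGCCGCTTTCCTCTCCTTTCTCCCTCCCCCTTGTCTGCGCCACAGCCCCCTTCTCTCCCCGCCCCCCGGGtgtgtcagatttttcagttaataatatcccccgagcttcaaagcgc

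The median flanking bin held 643 reads in control replicate 1, 1027 in control replicate 2, 655 in N-myc kd replicate 1 and 1039 in N-myc kd replicate 2. This median was 1.26 to 1.31 times that of all genome bins, which was 494, 815, 500 and 814 reads. Single flanking bins went lower, down to 425, 723, 407 and 733 reads. The flank median was 1.29 to 1.39 times the median bin of the short arm of chromosome 2. It was 1.71 to 1.89 times that of the whole chromosome. In block 1 the median bin held 61684, 71468, 63074 and 71662 reads in the same order of libraries. Block 2 was at the same level, with 59755, 71740, 60882 and 71370.5 reads. No flanking bin exceeded 1437 reads in any library, and the lowest bin of the blocks held 15350, so blocks and flanks did not overlap. Over the flanks, block 1 stood 95.9 times higher in control replicate 1, 69.6 times in control replicate 2, 96.3 times in N-myc kd replicate 1 and 69.0 times in N-myc kd replicate 2. The corresponding values of block 2 were 92.9, 69.9, 92.9 and 68.7 times. These are ratios of listed reads close to the largest count that any list holds (below). They are not estimates of the number of copies. A limit on reads can only lower the level of the blocks. The lists also leave out nucleosomes with fewer than 6 reads, which can lower the level of the flanks. The ratios are therefore not a bound on either side. The ratio separated the replicate numbers and not the groups, with the 2 deeper lists showing the smaller ratio. The blocks together held 1.98% and 2.02% of all listed reads in the 2 replicate 1 libraries and 1.40% and 1.42% in the 2 replicate 2 libraries.

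**Figure D1:**
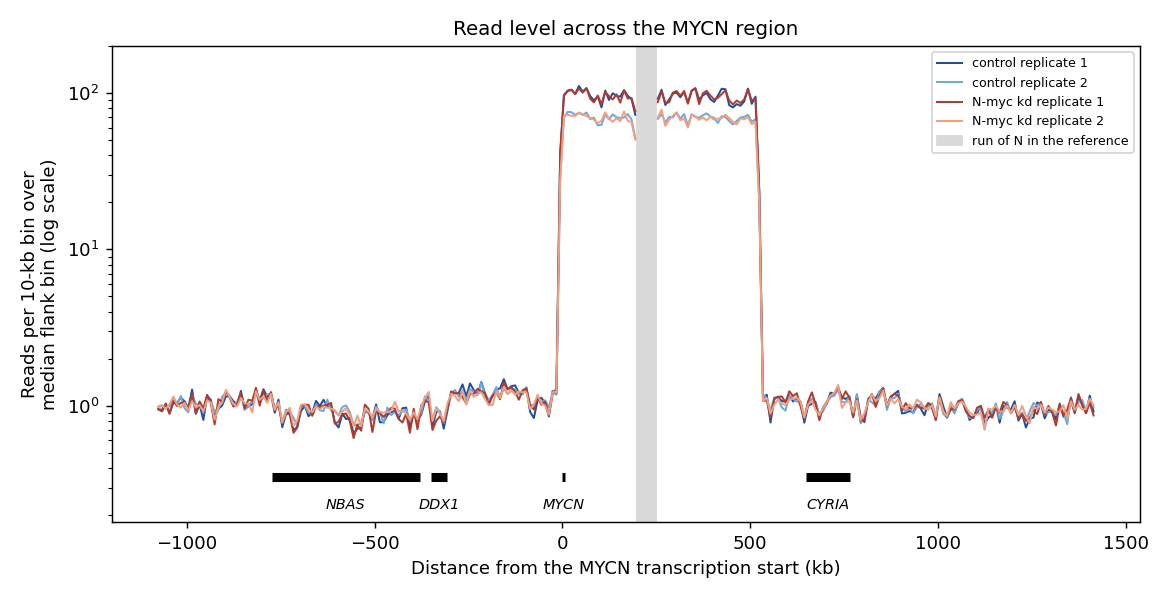
Reads per 10-kb bin divided by the median flanking bin (vertical axis, log scale) against the distance from the MYCN transcription start (kb), with 1 line for each of the 4 libraries, the run of N in the reference shaded and the 4 protein-coding genes as bars. The blocks stand 68.7 to 96.3 times above the flanks in listed reads, which have an upper limit, replicate 1 of both groups lies above replicate 2, and NBAS, DDX1 and CYRIA lie at the level of the flanks.

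The bins on each side of the block ends showed how sharp the change was. The bin just outside block 1 held 760, 1222, 844 and 1277 reads, and the first bin inside it held 25928, 28795, 27037 and 28843. The next bin inside held 62395 to 74243 reads, so the first bin was only partly high. At the far end of block 2, the last bin inside held 15350, 20878, 15565 and 20742 reads, and the bin just outside held 717, 1228, 701 and 1114. This last inner bin was also partly high, since the bin before it held 60758 to 69615 reads.

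Single nucleosomes placed the left end more closely. In control replicate 1 a nucleosome with 10 reads was followed 414 bp further by one with 1589 reads. In control replicate 2 the change ran from 34 to 1748 reads over 243 bp. In N-myc kd replicate 1 it ran from 11 to 996 reads over 485 bp, and in N-myc kd replicate 2 from 16 to 1749 reads over 343 bp. The midpoints of these changes had an SD of 112 bp over the 4 libraries. The nucleosome with 34 reads had a fuzziness (the SD of its read midpoints around the dyad) of 60.9 bp, which is wide.

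At the right end the last high nucleosome was at 16602658 with 901 reads in control replicate 1, at 16602646 with 1269 in control replicate 2, at 16602656 with 983 in N-myc kd replicate 1 and at 16602642 with 1305 in N-myc kd replicate 2. The next nucleosome held 16, 10, 8 and 13 reads. The mean position was 16602794 ± 26.2 bp (SD, n = 4). The approach to this end differed from the left one. The last 3 high nucleosomes held 643 to 983 reads in the replicate 1 libraries and 1100 to 1305 in the replicate 2 libraries, while the nucleosome before them held 1707, 1755, 1726 and 1763. On the left, the first 3 high nucleosomes held 1538 to 1589 reads in control replicate 1 and 1656 to 1748 in control replicate 2. They held 1668 to 1749 in N-myc kd replicate 2. In N-myc kd replicate 1 they held 996, 1595 and 1579, so only the outermost was as low as on the right. No library had such a run of 3 lower values on the left.

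**Figure D2:**
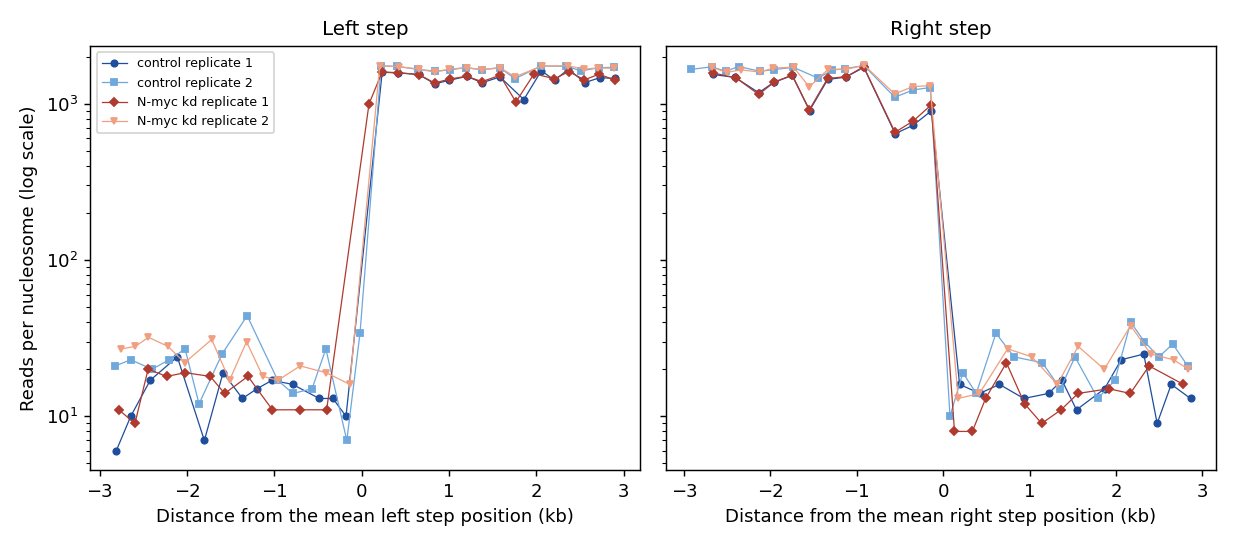
Reads per nucleosome (vertical axis, log scale) against the distance of the dyad from the mean position of the left and of the right change in level (kb), with 1 symbol per nucleosome and 1 colour per library. At both ends the level changes between neighbouring nucleosomes in all 4 libraries, and on the right the last 3 high nucleosomes hold 643 to 1305 reads.

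The left end lay in an exon of MYCNOS, a long noncoding RNA gene on the strand opposite MYCN (16058473-16082371). MYCNOS was therefore split. Its 18 kb on the low side had a median of 17, 27, 19 and 27 reads per nucleosome in control replicates 1 and 2 and N-myc kd replicates 1 and 2, and its 5.9 kb on the high side had 1412, 1646.5, 1426.5 and 1665.5. MYCNUT, a long noncoding RNA gene upstream of MYCN, ended before the left end, and its median of 17 to 27.5 reads per nucleosome was near that of the flanks and above it in every library. The MYCN start lay 4.3 kb inside the left end. The right end lay in an intron of the long noncoding RNA gene ENSG00000224400 (16535524-16613970), 11.2 kb before its end. From end to end the high level spanned 526 kb.

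The stretch between the blocks was not a measured drop in level. The reference holds a single run of N, which marks bases that the assembly left unknown, from 16279725 to 16329724, and it covers all but 276 of the 50000 bases between the blocks. No read can be placed on unknown bases, so these lists hold no level for the stretch. The last nucleosome before the run lay 177 bp (control replicate 1), 187 bp (control replicate 2), 176 bp (N-myc kd replicate 1) and 181 bp (N-myc kd replicate 2) from it, with 1586, 1704, 1612 and 1696 reads. The first one after it lay 530, 435, 424 and 426 bp past it and held 1438, 1590, 1205 and 1541 reads. Both were at the level of the blocks, so the read level was high up to each border of the run. Without the run, the 2 blocks together spanned 476 kb, of which 203 kb were in block 1 and 273 kb in block 2.

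Within the blocks the nucleosomes were close to an upper limit shared by all lists. The median read count per nucleosome was 1450.5 in control replicate 1, 1691 in control replicate 2, 1464 in N-myc kd replicate 1 and 1686 in N-myc kd replicate 2, against 15, 23, 15 and 23 in the flanks. The middle 90% of block nucleosomes of control replicate 1 began at 879 reads. The largest read count in each of the 4 complete lists was 1764, which is 12 reads for each of the 147 bases. It was held by 35, 68, 41 and 70 nucleosomes in the genome, of which 0, 7, 0 and 8 lay in the blocks. Every nucleosome at this count had a fuzziness of 42.43 bp, the SD of 147 positions that all hold the same number of reads. The methods state that duplicate read pairs were removed, and which step set the limit is not given in the sources used here.

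Reads were also compared between the replicates of a group. Nucleosomes of replicate 1 and replicate 2 were matched when each was the other's nearest and their dyads lay within 20 bp, and were grouped by their reads in replicate 1. The median ratio of replicate 2 to replicate 1 in the flanks was 1.46 over 2467 pairs in control and 1.47 over 2621 pairs in N-myc kd, for nucleosomes with at least 12 reads. In the blocks it was 1.58 in both groups for 600 to 899 reads, 1.36 and 1.37 for 900 to 1199, 1.19 in both groups for 1200 to 1499, and 1.09 and 1.08 at 1500 or more. The nucleosomes under 600 reads, 18 in control and 13 in N-myc kd, had ratios of 1.99 and 1.94. The ratio thus became smaller class by class towards 1764 reads. Since no count passes 1764, the ratio is capped in the upper classes, and part of this order was fixed in advance. Grouping by the mean of both replicates was an alternative added after the data were seen. It gave 2.75 and 2.26 under 600 reads (7 and 4 pairs) and 1.74 and 1.78 for 600 to 899 (18 and 16 pairs). For the classes from 900, 1200 and 1500 reads it gave 1.46 and 1.48, then 1.27 and 1.26, then 1.12 and 1.11. The ratio of the blocks to the flanks was smaller in the deeper lists, and the part of the limit in that was not tested.

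**Figure D3:**
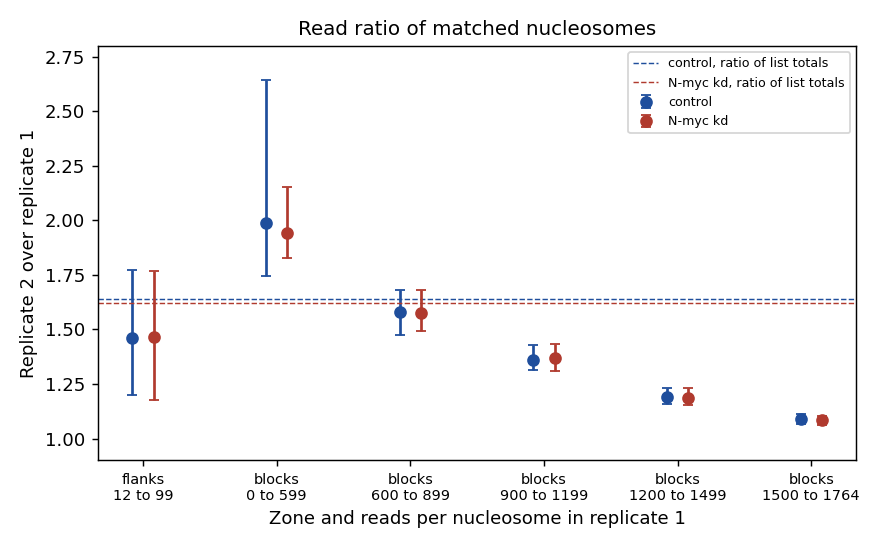
Median ratio of reads in replicate 2 to reads in replicate 1 for matched nucleosomes (points, with bars from the 25th to the 75th percentile) by zone and by reads in replicate 1, and the ratio of the list totals (dashed lines), for control and N-myc kd. In the blocks the median goes from 1.99 and 1.94 under 600 reads to 1.09 and 1.08 at 1500 or more.

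Of the nucleosomes with more than 0.5 times 1764 reads, 1997 of 2439 lay in the blocks in control replicate 1 (81.9%), 2070 of 2640 in control replicate 2 (78.4%), 2029 of 2473 in N-myc kd replicate 1 (82.0%) and 2068 of 2632 in N-myc kd replicate 2 (78.6%). At the largest count itself most nucleosomes lay elsewhere in the genome, as given above. The blocks were chosen by these read counts, so the shares are a description.

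Block nucleosomes had a higher and less varied fuzziness than flank nucleosomes. Median fuzziness in the blocks was 40.71 bp in control replicate 1, 41.91 bp in control replicate 2, 40.73 bp in N-myc kd replicate 1 and 41.87 bp in N-myc kd replicate 2. In the flanks it was 35.69, 37.00, 35.88 and 36.95 bp, so the 4 differences had a mean of 4.92 bp and the medians of the zones did not overlap. The distance from the 5th to the 95th percentile was 5.80 and 2.47 bp in the blocks of N-myc kd replicates 1 and 2 and 19.7 and 16.2 bp in their flanks. In control replicate 1, median fuzziness of block nucleosomes was 39.0 bp at 900 to 1199 reads, 40.1 bp at 1200 to 1499 and 41.3 bp from 1500 reads, so it came closer to 42.43 bp class by class. Nucleosomes elsewhere in the genome with 900 to 1199 reads had a median of 33.7 bp there (n = 150, against 262 in the blocks). Those from 1500 reads to below 1764 had 41.1 bp (n = 117). This class left out the 35 nucleosomes at 1764 reads, all outside the blocks and all at 42.43 bp. The part of the limit on reads in the fuzziness of the blocks was not tested.

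**Figure D4:**
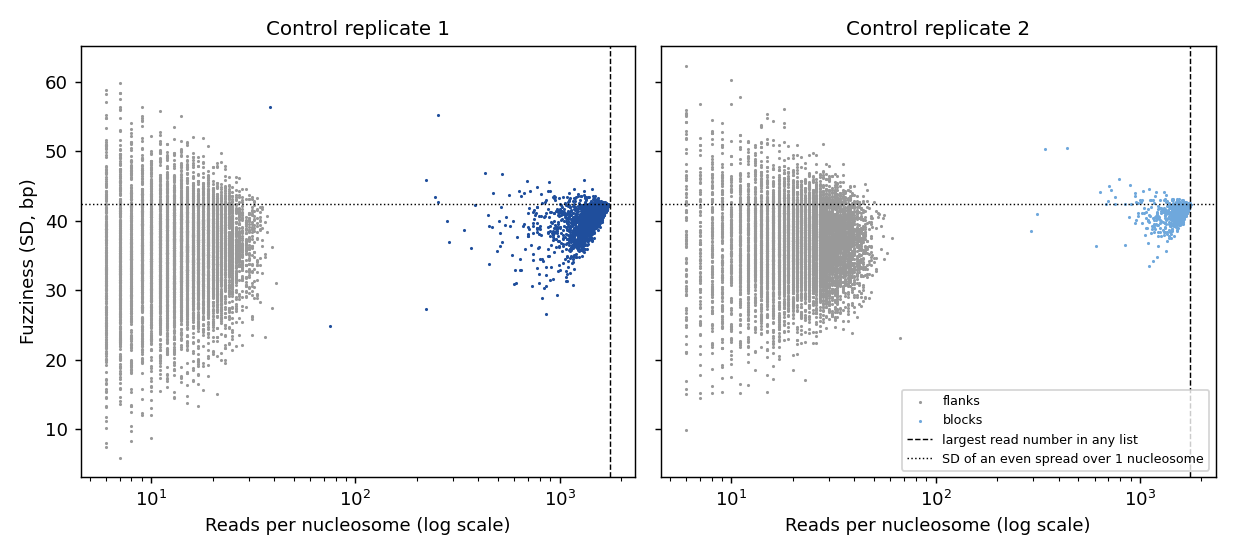
Fuzziness (vertical axis, SD in bp) against reads per nucleosome (horizontal axis, log scale) for nucleosomes of the blocks (colour) and the flanks (grey) in control replicates 1 and 2, with the largest read count of the lists (dashed) and the SD of an even spread over 1 nucleosome (dotted). Block nucleosomes gather where the lines cross, at 1764 reads and 42.43 bp, and more closely so in replicate 2.

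Spacing of the dyads was similar inside and outside the blocks. The median distance between neighbouring dyads was 207, 210, 206 and 210 bp in the blocks and 215, 209, 215 and 208 bp in the flanks, for control replicates 1 and 2 and N-myc kd replicates 1 and 2. In the replicate 1 libraries the blocks had the shorter distance and in the replicate 2 libraries the slightly longer one, so the direction did not hold over the 4 libraries. The lists held 4.42, 4.38, 4.46 and 4.37 nucleosomes per kb in the blocks and 4.14, 4.43, 4.19 and 4.47 in the flanks. The number of listed nucleosomes per kb thus differed little between zones whose reads differed many-fold. In every list the smallest distance between neighbouring dyads was 147 bp, the length of a nucleosome, so listed nucleosomes never overlapped. This limits both spacing and number per kb. The part of the calling and of read depth in these 2 measures was not tested.

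Dyad positions recurred between libraries more often in the blocks. Of the block dyads of control replicate 1, 82.4% had a dyad of N-myc kd replicate 1 within 10 bp, against 25.5% of its flank dyads. For control replicate 2 and N-myc kd replicate 2 the shares were 62.7% and 23.2%. The 2 controls agreed at 56.7% of block dyads and 23.4% of flank dyads, and the 2 N-myc kd libraries at 58.7% and 24.6%. The 2 remaining pairs, of control and N-myc kd with different numbers, gave 58.9% and 57.3% in the blocks. In all 6 pairs the block share was the higher. Within the blocks, libraries with the same number but different siRNA agreed more often than the 2 libraries of one group, and in the flanks this order did not hold. Block nucleosomes also had many more reads (above), and the part of read number in this agreement was not tested.

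From control replicate 1, 822 of 2104 block nucleosomes (39.1%) had a partner within 10 bp in each of the other 3 libraries, against 336 of 8121 in the flanks (4.14%). The dyads of these recurrent nucleosomes held more G and C than the places midway between neighbouring dyads. In the blocks the 21 bp at their 822 dyads held 46.8% G and C. The 21 bp midway between neighbouring dyads held 37.1% (n = 1384). The flanks gave 47.9% at 336 dyads and 37.3% at 4784 midpoints, so this contrast was present at both read levels. Over all known bases, block 1 held 46.6% and block 2 held 43.1%, and the left and right flanks held 41.5% and 39.7%. In the blocks the dyads were thus near the level of block 1 as a whole. The flank midpoints were too many to all border recurrent nucleosomes, so dyads and midpoints were not drawn from the same nucleosomes.

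Reads varied within the blocks, and followed base composition more closely in block 2 than in block 1. Among 1-kb windows, the mean read count per nucleosome, divided by the block median of each library and averaged over the 4 libraries, ranged from 0.741 to 1.11 in block 1 and from 0.589 to 1.09 in block 2. The 5 lowest windows of block 2 began at 16551001, 16481001, 16537001, 16440001 and 16562001, and their GC content was 26.5 to 29.7%, against a median of 43.4% over the block. In the lowest of them, in an intron of ENSG00000224400, nucleosomes averaged 607 reads in control replicate 1, 1152.5 in control replicate 2, 812 in N-myc kd replicate 1 and 1184.5 in N-myc kd replicate 2. The other 4 windows lay in introns of the noncoding genes ENSG00000224400, ENSG00000228876 and ENSG00000285354. Over the 272 windows of block 2, GC content and the scaled read count had a Pearson correlation of 0.75, and over the 200 windows of block 1 it was 0.34. The windows share libraries and depth, and the values are given as a description. The 5 lowest windows of block 1, which began at 16187001, 16263001, 16158001, 16251001 and 16184001, had a GC content of 33.2 to 52.8%. The median over block 1 was 46.55%, and the windows at 16158001 (47.5%) and 16251001 (52.8%) were above it. Of the 5 windows, 3 lay in introns of the noncoding genes GACAT3 and ENSG00000226764 and 2 in no annotated gene.

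Apart from the run of N, the longest place in the blocks without a dyad in any library was 16271585-16273975, a length of 2391 bp in block 1 and in no annotated gene. The nucleosome before it had 1201, 1470, 1145 and 1435 reads and the one after it 838, 1392, 849 and 1354, for control replicates 1 and 2 and N-myc kd replicates 1 and 2. Their dyads lay within 11 bp of its borders in all libraries. The next longest places were 428, 427 and 403 bp, and the longest in the flanks was 1065 bp. When the reference was cut into 100-base pieces every 20 bases, 88 of 115 pieces from the empty place (76.5%) had a single alignment with minimap2, against 115 of 115 from the same length before it and 112 of 115 after it. Pieces with a mapping quality of at least 30 numbered 101, 115 and 112. Most of its pieces thus had a single place in the reference.

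MYCN itself (16080672-16087129, plus strand) carried 29, 29, 29 and 30 nucleosomes with a median of 1367, 1611, 1373 and 1640.5 reads in control replicates 1 and 2 and N-myc kd replicates 1 and 2. Around its transcription start the order of nucleosomes recurred. One dyad lay 315, 319, 317 and 325 bp upstream of the start in the same order of libraries, with 1459, 1669, 1459 and 1671 reads. The next nucleosome was the weakest of the neighbourhood. Its dyad lay 13 bp upstream in control replicate 1 (857 reads), 109 bp upstream in control replicate 2 (752 reads), 15 bp upstream in N-myc kd replicate 1 (806 reads) and 120 bp upstream in N-myc kd replicate 2 (794 reads). Its place differed by 96 and 105 bp between the replicates of a group, and by 2 and 11 bp between control and N-myc kd of the same number. Against the median of the blocks, its reads were at 0.591, 0.445, 0.551 and 0.471 times. In the replicate 2 libraries 10 of 2083 and 10 of 2079 block nucleosomes were weaker, and in the replicate 1 libraries 99 of 2104 and 74 of 2121. The first nucleosome downstream lay at 166, 114, 175 and 122 bp with 1412, 1569, 1344 and 1586 reads. The weakest nucleosome had a fuzziness of 32.2, 43.5, 34.1 and 42.3 bp in the same order of libraries. In the replicate 1 libraries it covered the start, and in the replicate 2 libraries it lay wholly upstream. Whether it was the same nucleosome in all libraries was not tested. Active genes commonly have a nucleosome-free region just upstream of the start.

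**Figure D5:**
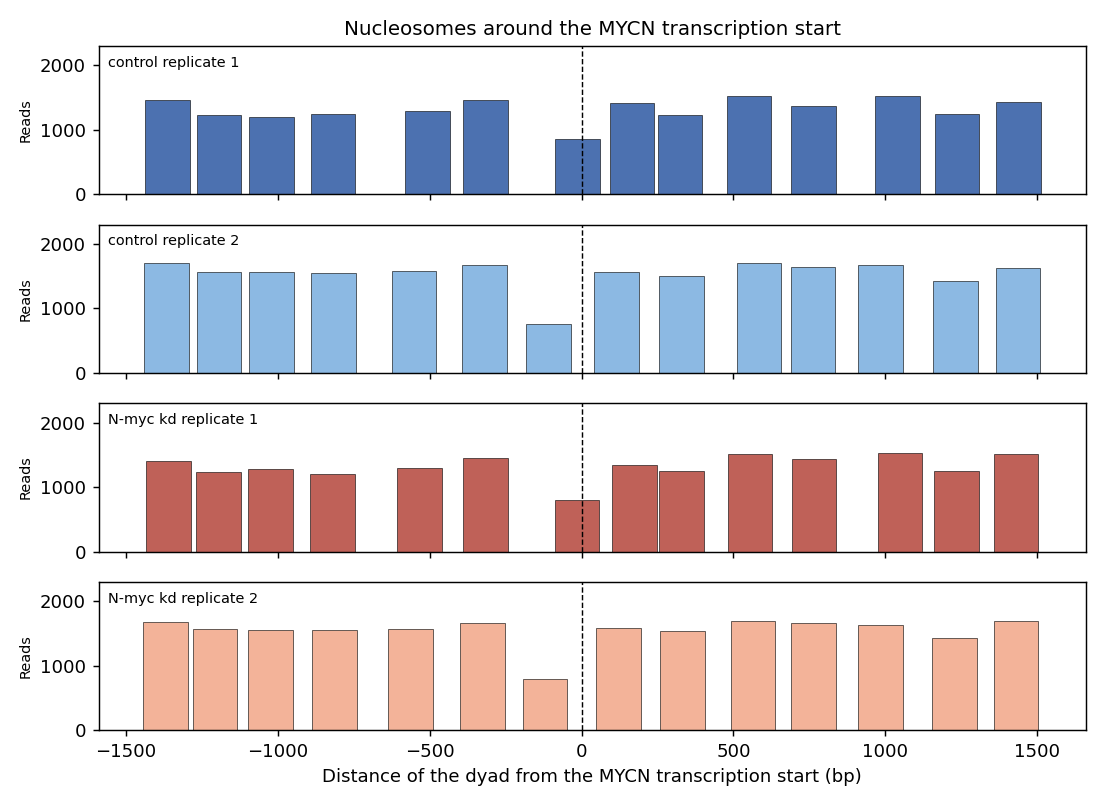
Nucleosomes around the MYCN transcription start in the 4 libraries, with each bar as wide as a nucleosome, its height the reads (linear scale from 0) and its position the distance of the dyad from the start (bp, dashed line at 0). The bar whose dyad lies next to the start on its upstream side is the lowest in each library, with 752 to 857 reads. Its place is shared by replicates of the same number, and in the replicate 1 libraries it covers the start.

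The other 3 protein-coding genes of the region lay in the flanks. The near border of NBAS (15307040-15701464, minus strand) lay 375 kb before the left end of the blocks, and the gene had a median of 14, 20, 14 and 21 reads per nucleosome in control replicates 1 and 2 and N-myc kd replicates 1 and 2. DDX1 (15731302-15774470, plus strand) lay 302 kb before it and had 13, 19, 14 and 20 reads. CYRIA (16730727-16847599, minus strand), which codes for a regulator of the RAC1-driven actin skeleton, lay 128 kb past the right end and had 16, 24, 17 and 25 reads. None of the 3 had the high level. NBAS and DDX1 were below the median of the flanks in every library, and CYRIA was above it. At their transcription starts, the dyads on the 2 sides lay 286 to 312 bp apart at NBAS and 406 to 431 bp apart at CYRIA. At DDX1 the dyads were 373 and 335 bp apart in the controls and 441 bp apart in N-myc kd replicate 1. In N-myc kd replicate 2 they were 201 bp apart, where a nucleosome with 9 reads was listed 40 bp upstream. With a minimum of 6 reads in the lists, 9 reads in 1 library do not separate the groups.

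The blocks also overlapped 14 annotated genes that do not code for protein. The 8 of them that lay wholly inside the blocks and held at least 1 nucleosome besides RN7SL104P were ENSG00000226764, GACAT3, ENSG00000236989, ENSG00000226041, ENSG00000228876, ENSG00000231266, ENSG00000285354 and ENSG00000232444, with medians of 1265 to 1648 reads in control replicate 1. RN7SL104P, a pseudogene of the signal recognition particle RNA, held 1 nucleosome with 1677 reads there. The pseudogene ENSG00000271315 and the small nucleolar RNA gene SNORA40 are shorter than 1 nucleosome and held no dyad. MYCNOS, MYCNUT and ENSG00000224400 reach beyond the blocks or their measured ends.

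No difference between N-myc kd and control was detectable in the blocks, with 2 libraries in each group. Reads there lay close to the upper limit of the lists and median fuzziness close to the 42.43 bp of an even spread. A difference could therefore have gone unseen. The median bin of block 1 stood 82.8 ± 18.6 times above the flanks in control and 82.6 ± 19.3 times in N-myc kd (SD, n = 2 each; exact permutation test, two-sided, p = 1), with both values under the limit on reads. For block 2 the values were 81.4 ± 16.3 and 80.8 ± 17.2 (exact permutation p = 1). Median fuzziness was 41.3 ± 0.849 bp in control and 41.3 ± 0.806 bp in N-myc kd (exact permutation p = 1). Median dyad spacing was 208.5 ± 2.12 bp and 208 ± 2.83 bp (exact permutation p = 1). Only 6 arrangements of the 4 libraries exist, which puts the smallest possible p at 0.333, and none of these 4 comparisons could pass 0.05. The differences between libraries of the same number were small beside the spread within groups, at 0.365 and -0.617 times for block 1 and 0.02 and -0.04 bp for fuzziness.

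Bins were also tested one by one with edgeR over the whole genome. Of 284468 bins, 0 were called at an adjusted p of 0.05 (0%), while 9391 had an unadjusted p under 0.05 (3.3%). DESeq2 called 0 bins and gave 3766 with an unadjusted p under 0.05. In the region, 0 of 245 bins were called and 6 had an unadjusted p under 0.05 with edgeR and 1 with DESeq2. All 6 were higher in N-myc kd, the direction that 1.52% of all bins took at this p against 1.78% for lower, and none lay in the blocks. Of these 6, 5 lay in or at NBAS and 1, beginning at 17240001, in no annotated gene, with log2 differences of 0.17 to 0.21. The 6 of 245 bins (2.45%) were a smaller share than among all bins. The median log2 difference between N-myc kd and control was 0.03 in the blocks, from -0.12 to 0.11 over 49 bins, and 0.02 in the flanks, from -0.17 to 0.21. The median over all bins was 0.00. In the blocks the lowest unadjusted edgeR p was 0.897 without a replicate block, and there the replicates of a group differed by more than the groups did. With a replicate block, 6 of these 49 bins (12.2%) had an unadjusted p under 0.05, against 8.99% of all bins, as described in the last section.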

How the data were processed

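MNase-seq nucleosome lists of 4 libraries (control and N-myc kd, replicates 1 and 2) were used. The submitters' processing notes name CASAVA 1.9, Trim Galore 0.4.4, Bowtie2 2.2.4 and hg19. Per the methods, duplicate read pairs were removed, replicates were pooled for later steps and nucleosomes were called with Genetrack. The deposited lists used here are 1 per library. The deposited read counts are whole numbers of read midpoints per called nucleosome, taken as unscaled because their totals differ between lists, and the deposited fuzziness was computed by the authors as the SD (bp) of those midpoints. Depth is given as list totals, since only reads in called nucleosomes are listed.

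Counts were summed by dyad in 10-kb bins. Bins with a mean of at least 10 reads were tested with edgeR 4.0.16 (TMM, quasi-likelihood, Benjamini-Hochberg threshold 0.05), with DESeq2 1.42.0 as an alternative. The tests were checked on simulated data, which had no upper limit on reads. For the bin test, no bin at the read level of the blocks was changed in them, so that check does not cover the blocks. Ends of the blocks were placed by a least-squares change point in log2 reads within 20 kb. Single values were compared by exact permutation tests over libraries. Genes came from GENCODE release 44 on GRCh37: every protein-coding gene of the region, every gene overlapping the blocks and every gene at an end was named, as were the 5 lowest 1-kb windows (with at least 2 nucleosomes in each library) and the longest dyad-free places. Sequence pieces were placed with minimap2 2.31. The members and lists were chosen with earlier results of these data known. Alternatives were other scalings, no filter, means in place of medians, narrower windows, a replicate block and leaving out each library. The sequence at the left end of the blocks is not reported here.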

Additional observations from a re-analysis of the deposited data

How the results depend on the processing

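Read counts near the shared upper limit, 2 libraries per group and list totals in place of library depth limit these results. Leaving out 1 library gave 0 to 5 called bins of the genome (0 without control replicate 2, 1 without N-myc kd replicate 1, 2 without N-myc kd replicate 2 and 5 without control replicate 1), none of them in the region. The replicate numbers are shared only as labels, and deviations of same-numbered libraries correlated at 0.46 over bins. A replicate block in edgeR gave 88 called bins in the genome and 0 in the region, with 20 region bins at an unadjusted p under 0.05 in place of 6, and 6 of the 20 lay among the 49 bins of the blocks (12.2%, lowest unadjusted p 0.0023), against 8.16% of the region and 8.99% of all bins. The block left the differences in read level, fuzziness and spacing as they were, by construction. With the median genome bin as reference, block 1 stood at 107 times and block 2 at 105 times in place of 82.7 and 81.1. Over nucleosomes with at least 20 reads, fuzziness of the blocks exceeded that of the flanks by 4.59 bp in place of 4.92. With the same minimum the spacing difference went from -3.50 to -219 bp, because flank nucleosomes under 20 reads dropped out. Leaving out 1 library also left groups of unequal depth, and the log2 difference of N-myc kd from control ranged from -0.24 to 0.24 for block 1 and from -0.23 to 0.21 for block 2, against -0.0037 and -0.012 with all libraries. Of 95 alternatives to 21 results, 83 were counted as unchanged, which for measured values meant a move smaller than the spread between replicates. Among the 83 were the replicate-block values of read level, fuzziness and spacing, which could not move, and bin counts, which have no replicate spread. The replicates also differed in depth, so the log2 values of -0.24 and 0.24 for block 1 counted as unchanged. The tally is therefore no measure of how firm the results are.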
